A study of Homo sapiens with 15 samples.

Results

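Transcripts of 7 transcription factors of the renal lineage were followed in 2 ccRCC cell lines with and without *ANGPTL4*. The factors *POU3F3*, *PAX2*, *PAX8*, *HNF4A*, *HNF4G*, *LHX1* and *EMX2* were chosen by symbol, with earlier results of these data known. Of the 7, 6 were analysed, 5 in CAKi-1 and 6 in 786O. They are 6 of 17237 genes analysed in at least one line. *PAX2* was measured in 786O, and *EMX2*, as well as *PAX2* in CAKi-1, was not analysed here.

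CAKi-1 and 786O are human lines of clear cell renal cell carcinoma (ccRCC), the first with wild-type *VHL* and the second with mutant *VHL*. The study asked how the transcriptome changes when *ANGPTL4*, a secreted inhibitor of lipoprotein lipase, is lost. A4KO cells of each line were made with CRISPR-Cas9 and are a mixture of single clones that had lost *ANGPTL4*. WT cells of 786O are a mixture of clones that went through the same procedure without the loss, whereas for CAKi-1 the methods of the study name parental cells and the series description names unedited clones. The libraries, from untreated cells in log phase, numbered 4 (WT) and 5 (A4KO) for CAKi-1 and 3 (WT) and 3 (A4KO) for 786O. The medium is RPMI in the sample labels and DMEM in the methods. No source says that replicates were separate cultures, so p-values measure the spread between these libraries, which may be technical, and differences between the clones that were mixed cannot be told apart from the loss of *ANGPTL4*.

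The members act at different points of kidney development. *PAX2* and *PAX8* encode paired-box factors that specify the nephric lineage, and *PAX8* stays on in renal epithelium and is used as a marker of renal carcinoma. *LHX1*, a LIM homeobox gene, acts with them in the nephric duct and the renal vesicle, and *EMX2* is a homeobox gene of the ureteric bud. *POU3F3* encodes a POU domain factor needed for the loop of Henle and the distal tubule and is also known from cortical neurons. *HNF4A* and *HNF4G* encode paralogous nuclear receptors of epithelia such as proximal tubule, liver and intestine.

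In GENCODE release 44 (hg38), *POU3F3* (ENSG00000198914.5) lies on the plus strand of chromosome 2 from 104853287 to 104858574, and its canonical transcript has 1 exon of 4460 bases. *PAX8* (ENSG00000125618.18) lies on the minus strand of the same chromosome from 113215997 to 113278921. *PAX2* (ENSG00000075891.24) is on chromosome 10 from 100735396 to 100829944, *HNF4A* (ENSG00000101076.20) on chromosome 20 from 44355699 to 44432845 and *LHX1* (ENSG00000273706.5) on chromosome 17 from 36936785 to 36944612, all on the plus strand. The antisense RNAs *PAX8-AS1* and *HNF4A-AS1*, an unnamed transcript opposite *LHX1* and a long noncoding RNA on the strand of *POU3F3* overlap members. They were not analysed here, and the strand setting of the counting is not stated, so reads of the overlaps cannot be assigned to one gene.

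The upstream sequences of *POU3F3* and *PAX2* are shown because these members had the largest fall and the largest rise of the set. Each is the 250 bases before a RefSeq start site (GRCh38.p14, plus strand), chr2:104853865-104854114 for *POU3F3* and chr10:100735146-100735395 for the first of the *PAX2* starts. Capitals mark CCAAT in the *POU3F3* sequence and, in that of *PAX2*, the core ACGTG of hypoxia response elements read on the other strand.
POU3F3: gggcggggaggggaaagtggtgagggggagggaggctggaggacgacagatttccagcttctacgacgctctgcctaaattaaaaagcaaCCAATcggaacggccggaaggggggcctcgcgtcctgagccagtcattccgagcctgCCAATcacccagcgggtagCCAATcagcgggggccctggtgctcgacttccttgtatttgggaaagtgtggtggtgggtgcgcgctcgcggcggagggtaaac
PAX2: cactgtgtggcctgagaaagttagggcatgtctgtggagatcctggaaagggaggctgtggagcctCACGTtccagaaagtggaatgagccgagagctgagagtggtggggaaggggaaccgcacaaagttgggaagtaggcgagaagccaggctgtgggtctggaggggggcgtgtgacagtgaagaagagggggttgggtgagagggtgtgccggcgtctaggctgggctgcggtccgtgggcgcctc
The *POU3F3* sequence holds 3 matches to CCAAT, searched on both strands, and 18 CpG dinucleotides, with a GC content of 62.0%. CCAAT was searched after the sequences had been read. Of 35116 promoter windows of the same length, 32.0% hold at least 1 CCAAT and 2.93% hold 3 or more, and 63.2% have fewer CpG. The *PAX2* sequence has 10 CpG, a GC content of 61.6% and 1 match to ACGTG, which 18.5% of the windows hold. The window of the other RefSeq start of *PAX2* (chr10:100745332-100745581) has 15 CpG and 0 matches to ACGTG. Neither sequence holds ATGCAAAT, the octamer read by POU factors (in 1.63% of windows), GTTAAT, an HNF1 half-site (6.23%), or CAAAGTCCA, an HNF4 core (0.325%). A match describes letters only and is not evidence of binding.

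Levels are given as TPM, the length-corrected share of a gene among all transcripts of a library. TPM sums ran from 961437 to 973887 and 0 values were exactly 0, but read numbers cannot be recovered from TPM, so no counting error can be given. In CAKi-1, A4KO replicates 1 and 4 stood apart from replicates 2, 3 and 5. Between the sets the median absolute log2 ratio of genes above 10 TPM was 0.189 to 0.213, against 0.0659 to 0.0883 within them and 0.0513 to 0.0936 within the other groups. Mitochondrial genes held 6.39% to 8.00% of the TPM in CAKi-1, 7.47% to 8.16% in 786O WT and 9.46% to 10.0% in 786O A4KO. Of 12 markers of ccRCC lines, 11 were measured in CAKi-1 and all 12 in 786O, with *VIM* highest among them in both, and *PAX8* stood high in both lines. Among the markers, *NDUFA4L2* and *EGLN3* were under 1 TPM on average in both groups of CAKi-1, *EGLN3* in every library, and *CA9*, the hypoxia-driven carbonic anhydrase, was not analysed there. The summed level of this list was 5547 to 6695 TPM in WT and 2876 to 3871 TPM in A4KO of CAKi-1, and 6676 to 6898 and 5312 to 5363 TPM in 786O. Called lower among them were *KRT8*, *KRT18* and *CDH2* in CAKi-1 and *CA9* (7.54 and 0.287 TPM in WT and A4KO), *EPCAM*, *CDH6* and *NDUFA4L2* in 786O, where *EGLN3* was called higher (26.5 and 74.1 TPM). Of 16 markers of leukocytes, endothelium, fibroblasts, podocytes and red cells, 8 were measured in CAKi-1 and 7 in 786O. Of the leukocyte markers, *PTPRC* averaged at most 0.372 TPM in a group and *LYZ* at most 0.136 TPM in CAKi-1. The leukocyte marker *CD68* was high, with means of 57.3 TPM in WT and 54.3 TPM in A4KO of CAKi-1. Their sums were 109 to 114 TPM in WT and 118 to 157 TPM in A4KO of CAKi-1, and 67.8 to 70.1 and 43.0 to 48.1 TPM in 786O, and 2 and 1 of them were under 1 TPM in every library. Called among them were *COL1A1* (10.2 and 36.2 TPM in WT and A4KO) and *PECAM1* (0.360 and 3.29) in CAKi-1, and *PDGFRB* (0.407 and 4.69) and *CD68* (43.1 and 20.2) in 786O, the last under the fold threshold with the shift of its neighbouring genes taken off (-0.53). The part of these shifts in the results for the members was not tested.

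*ANGPTL4* itself followed the labels. In CAKi-1 it stood at 74.9, 83.2, 86.9 and 71.7 TPM in WT, against 7.26, 2.87, 2.87, 6.47 and 2.90 TPM in A4KO. In 786O it stood at 20.6, 17.6 and 18.1 TPM in WT, against 2.19, 2.17 and 1.86 TPM in A4KO. The groups did not overlap in either line, and some transcript remained in every A4KO library.

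Within each line, A4KO was compared with WT on log2(TPM + 1) by limma, two-sided, and p-values were adjusted by Benjamini-Hochberg over every gene of that line. This scale understates the change of genes with low values. Genes are named as called here if they changed by 1 or more on the log2 scale, up or down, with an adjusted p not above 0.05.

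Of the members, *POU3F3* was called lower in both lines and was the 1 of 5 called in CAKi-1. In 786O, 3 of 6 were called, *POU3F3* as lower and *PAX2* and *HNF4G* as higher. *PAX8* and *LHX1* fell in 786O by less than the fold threshold, and *HNF4A* was close to 0 TPM throughout. As background, 3.33% of the 16296 genes of CAKi-1 were called (1.12% lower and 2.21% higher) and 7.62% of the 16188 genes of 786O (5.19% lower and 2.43% higher). The members were chosen with earlier results of these data known, so their counts are descriptions. WT and A4KO values were separate, with no overlap, for 2 of 5 members in CAKi-1 (*POU3F3* and *HNF4A*), where 35.9% of all genes had such groups, and for 6 of 6 in 786O, where 66.9% had. By adjusted p alone, 1 of 5 members was lower and 0 higher in CAKi-1, beside 21.1% and 17.9% of all genes, and 3 of 6 were lower and 2 higher in 786O, beside 33.5% and 27.5%.

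**Figure D1:**
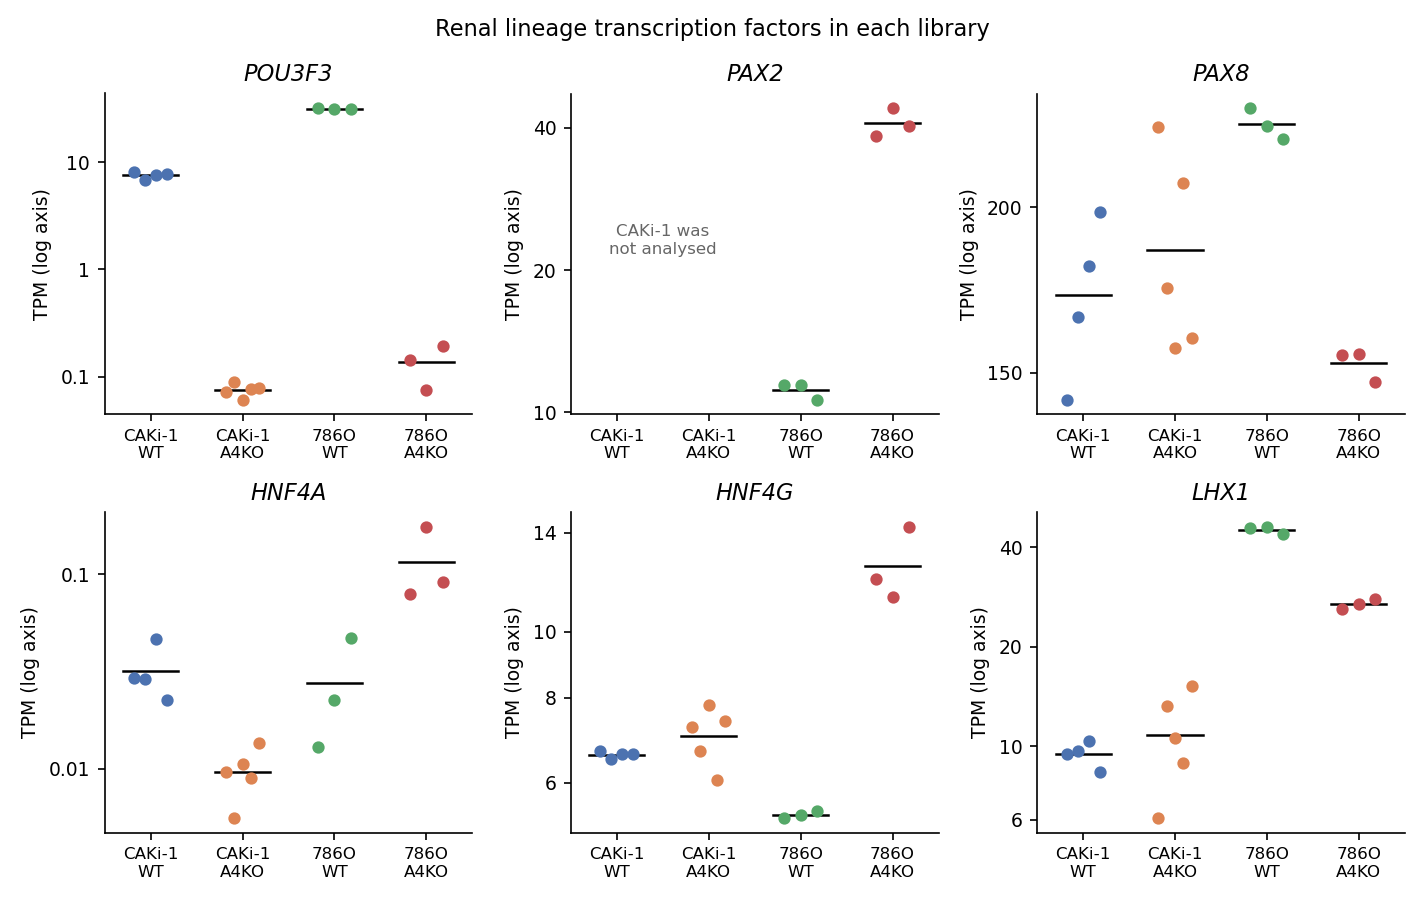
TPM of each member (log axis, scaled for each gene) in every library of the 4 groups, with the group mean as a line. *POU3F3* lies between 6.76 and 31.8 TPM in the WT libraries and under 0.2 TPM in all A4KO libraries of both lines, whereas *PAX8* overlaps between WT and A4KO in CAKi-1.

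*POU3F3*, the factor of the loop of Henle and distal tubule, was almost absent after the loss of *ANGPTL4*. In CAKi-1 it stood at 8.10, 6.76, 7.50 and 7.76 TPM in WT, against 0.0720, 0.0897, 0.0611, 0.0768 and 0.0781 TPM in A4KO. In 786O it stood at 31.8, 31.2 and 30.9 TPM in WT, against 0.143, 0.0746 and 0.192 TPM in A4KO. Every A4KO library was far below every WT library, and CAKi-1 A4KO replicates 1 and 4 lay within the range of the other 3. The mean fell from 7.53 ± 0.567 (SD, n = 4) to 0.0755 ± 0.0103 TPM (SD, n = 5) in CAKi-1, a 99.7-fold difference, and from 31.3 ± 0.447 to 0.137 ± 0.0591 TPM (SD, n = 3 each) in 786O, a 229-fold difference. On the log2(TPM + 1) scale the changes were -2.99 (SE 0.053, limma adjusted p = 6.3e-09) and -4.83 (SE 0.048, limma adjusted p = 8.1e-08). These were the 5th largest fall of 16296 genes in CAKi-1 and the 14th largest of 16188 in 786O. The exact permutation test (two-sided) gave p = 0.0159 in CAKi-1 and p = 0.1 in 786O, the smallest values that 4 against 5 and 3 against 3 libraries allow, and the second design cannot reach 0.05.

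The combination was rare among the genes of both lines. Ranked by the smaller of the 2 falls, *POU3F3* came 1st of 15247 genes, ahead of *ANGPTL4* (-2.69), *SYTL2*, an effector of vesicle transport (-2.53), and *WNT7B*, a Wnt ligand (-2.41). Of 9408 genes with a WT mean of at least 5 TPM in both lines, *POU3F3* was the 1 gene with an A4KO mean under 5% of the WT mean in each. This ranking was made after its values had been seen.

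**Figure D2:**
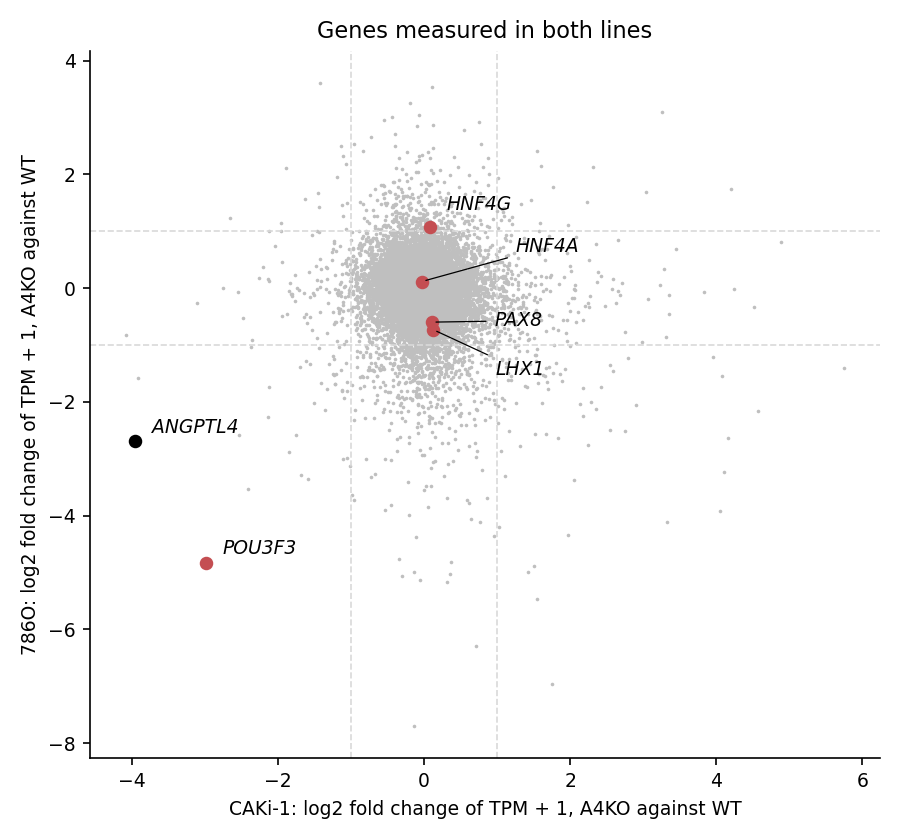
Log2 fold change of TPM + 1 (A4KO against WT) in CAKi-1 on the horizontal axis and in 786O on the vertical axis, for the 15247 genes of both lines in grey, with members in red, *ANGPTL4* in black and dashed lines at a change of 1. *POU3F3* lies at -2.99 and -4.83, and the other 4 members plotted lie near 0 in CAKi-1 and spread from -0.73 to 1.08 in 786O.

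None of the 50 nearest expressed genes, 25 on each side, fell as far as *POU3F3* in either line. Their median log2 fold change was 0.01 in CAKi-1 and -0.20 in 786O. In CAKi-1 they ranged from -0.87 (*FHL2*) to 1.28 (*TBC1D8*) over -7.10 to 7.05 Mb, and in 786O from -2.27 (*CREG2*) to 1.22 (*GPR45*) over -6.24 to 5.78 Mb. The next genes on either side were *TMEM182* (0.19 in CAKi-1 and -0.54 in 786O) and *MRPS9*, a mitochondrial ribosomal protein gene (-0.00 and -0.19). The paralogue *POU3F2*, a neural factor, averaged at most 0.0730 TPM in every group.

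**Figure D3:**
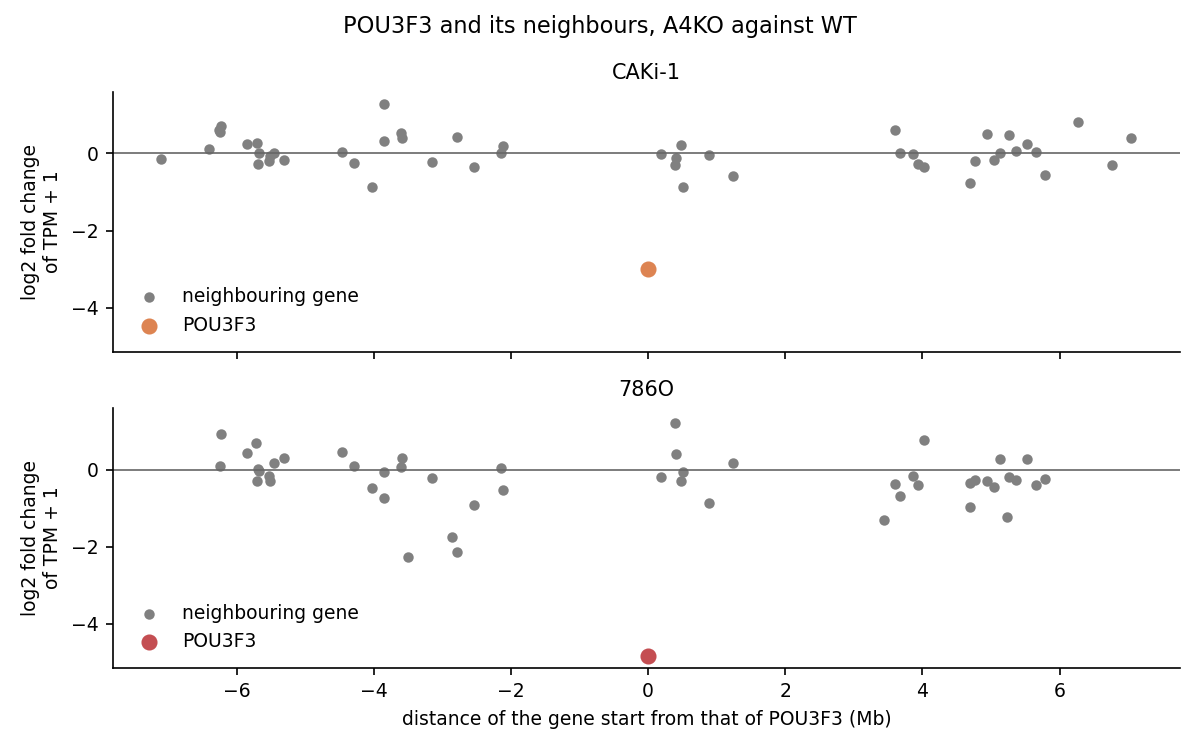
Log2 fold change of TPM + 1 (A4KO against WT) of *POU3F3* (coloured) and its 50 nearest expressed neighbours (grey) by distance of the gene start in Mb, CAKi-1 above and 786O below. The lowest neighbours are at -0.87 and -2.27, while *POU3F3* is at -2.99 and -4.83.

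*PAX2*, the nephric factor measured in 786O alone, rose where *PAX8* fell. It stood at 11.4, 11.4 and 10.6 TPM in WT, against 38.4, 44.1 and 40.4 TPM in A4KO. The groups were well apart, with means of 11.2 ± 0.456 and 41.0 ± 2.87 TPM (SD, n = 3 each), a 3.67-fold rise (log2 fold change 1.78, SE 0.061, limma adjusted p = 3.2e-06). Its 50 nearest expressed neighbours had a median log2 fold change of 0.075.

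*PAX8*, the marker of renal epithelium, was the highest member in all 4 groups. In 786O it stood at 237.8, 230.4 and 225.2 TPM in WT, against 154.8, 155.0 and 147.6 TPM in A4KO. All A4KO libraries were lower, and the mean of 152 ± 4.22 TPM was 0.660 of the WT mean of 231 ± 6.34 TPM (SD, n = 3 each; log2 fold change -0.60, SE 0.041, limma adjusted p = 4.5e-05). The median of its 50 nearest expressed neighbours was -0.27 in 786O, and with that regional shift taken off in each library the fall of *PAX8* was -0.33 (limma adjusted p = 0.000657). In CAKi-1 *PAX8* stood at 143.1, 165.1, 180.7 and 198.3 TPM in WT, against 230.1, 173.9, 156.6, 208.7 and 159.3 TPM in A4KO. The groups overlapped (172 ± 23.4, n = 4, and 186 ± 32.3 TPM, n = 5, SD), with A4KO replicates 1 and 4 above the other 3. The log2 fold change was 0.11 (95% interval -0.20 to 0.41, limma adjusted p = 0.578), and with A4KO replicates 2, 3 and 5 alone it was -0.06 (limma adjusted p = 0.683).

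Together, *PAX2* and *PAX8* shifted in proportion in 786O. *PAX2* made up 4.59%, 4.73% and 4.51% of the summed TPM of both genes in WT and 19.9%, 22.1% and 21.5% in A4KO. The sum itself was 249.3, 241.8 and 235.9 TPM in WT and 193.2, 199.0 and 188.0 TPM in A4KO, so that the groups did not overlap for the share or for the sum. The WT level of *PAX8* was above that of 96.1% of the genes of 786O, and that of *PAX2* above that of 48.2%.

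*LHX1*, the LIM homeobox gene of the nephric duct, fell in 786O. It stood at 45.7, 46.2 and 43.9 TPM in WT, against 26.1, 26.9 and 27.8 TPM in A4KO. The groups did not overlap, and the A4KO mean of 26.9 ± 0.875 TPM was 0.595 of the WT mean of 45.3 ± 1.22 TPM (SD, n = 3 each; log2 fold change -0.73, SE 0.042, limma adjusted p = 2.2e-05). In CAKi-1 it stood at 9.49, 9.66, 10.4 and 8.34 TPM in WT, against 6.06, 13.2, 10.6, 8.90 and 15.3 TPM in A4KO. The A4KO libraries lay on both sides of WT, with replicates 1 and 4 at the low end (9.46 ± 0.835, n = 4, and 10.8 ± 3.61 TPM, n = 5, SD). The log2 fold change was 0.12 (95% interval -0.36 to 0.60, limma adjusted p = 0.693). With A4KO replicates 2, 3 and 5 alone the mean was 13.0 ± 2.35 TPM (SD, n = 3) and the change was 0.41 (limma adjusted p = 0.0289), so this result depends on which A4KO libraries are used.

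*HNF4G* (ENSG00000164749.13) lies on the plus strand of chromosome 8 from 75407914 to 75566834. This nuclear receptor gene of intestine and kidney rose in 786O from 5.32, 5.37 and 5.45 TPM in WT to 12.0, 11.3 and 14.3 TPM in A4KO. The lowest A4KO library was above the highest WT library, and the means of 5.38 ± 0.0647 and 12.5 ± 1.59 TPM (SD, n = 3 each) differed 2.33-fold (log2 fold change 1.08, SE 0.084, limma adjusted p = 7.9e-05). Without A4KO replicate 3, the highest, the change was 0.98 (limma adjusted p = 7.02e-05), under the fold threshold, and 2 members instead of 3 were called. In CAKi-1 it stood at 6.67, 6.50, 6.61 and 6.61 TPM in WT, against 7.24, 6.68, 7.81, 6.05 and 7.39 TPM in A4KO. These overlapped (6.60 ± 0.0709, n = 4, and 7.04 ± 0.685 TPM, n = 5, SD), and the change was 0.08 (95% interval -0.07 to 0.23, limma adjusted p = 0.397).

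*HNF4A*, a central regulator of proximal tubule and liver, was barely detected. In CAKi-1 it stood at 0.0293, 0.0288, 0.0463 and 0.0227 TPM in WT, against 0.00966, 0.00559, 0.0106, 0.00901 and 0.0135 TPM in A4KO, and in 786O at 0.0129, 0.0225 and 0.0471 TPM in WT and 0.0791, 0.175 and 0.0906 TPM in A4KO. The A4KO libraries were lower than WT in CAKi-1 and higher in 786O, without overlap, but under 1% of the genes of either line had a lower WT mean (0.988% and 0.859%). The log2 fold changes were -0.03 (SE 0.038, limma adjusted p = 0.548) and 0.12 (SE 0.046, 95% interval 0.01 to 0.23, limma adjusted p = 0.0656). With no pseudocount they were -1.72 (limma adjusted p = 0.0023) and 2.17 (limma adjusted p = 0.025), so the call depends on the scale, and the number of reads behind these values is unknown. The exact permutation test on log2(TPM + 1) gave p = 0.0159 in CAKi-1 and p = 0.1 in 786O, the smallest values these designs allow.

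**Figure D4:**
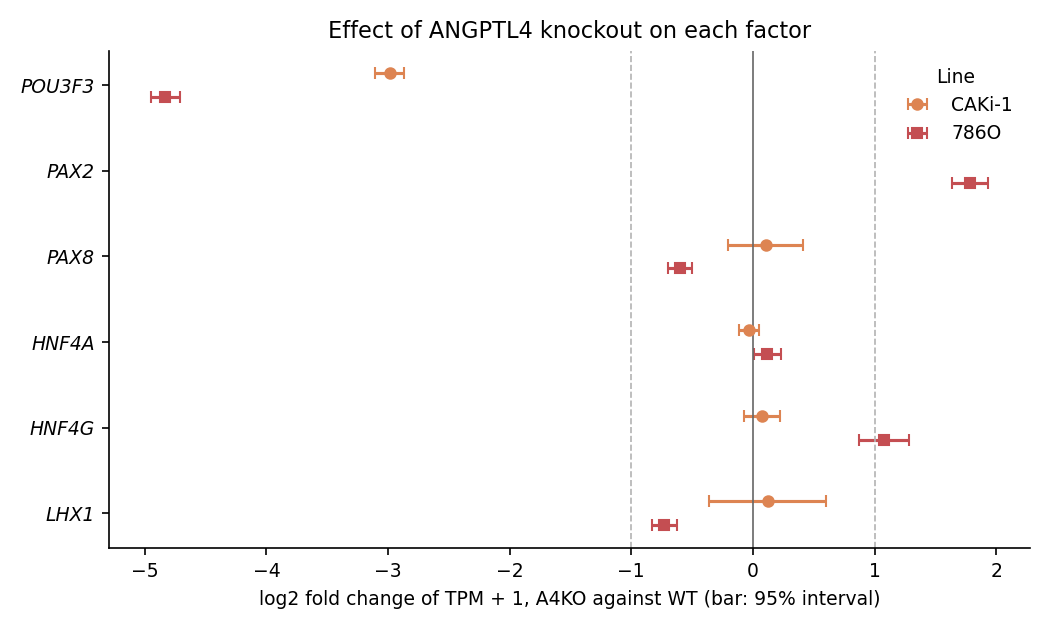
Log2 fold change of TPM + 1 (A4KO against WT, limma) of each member in CAKi-1 (circles) and 786O (squares), with 95% intervals as bars and dashed lines at a change of 1. In CAKi-1 the interval of *POU3F3* alone excludes 0, whereas in 786O *POU3F3* (-4.83), *LHX1* (-0.73) and *PAX8* (-0.60) lie below 0 and *PAX2* (1.78), *HNF4G* (1.08) and, narrowly, *HNF4A* (0.12, interval 0.01 to 0.23) above.

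The order of the levels changed with genotype. In CAKi-1 WT it was *PAX8*, *LHX1*, *POU3F3*, *HNF4G* and *HNF4A* from high to low, and in A4KO *POU3F3* moved below *HNF4G*, while *LHX1* and *HNF4G* overlapped. In 786O WT it was *PAX8*, *LHX1*, *POU3F3*, *PAX2*, *HNF4G* and *HNF4A*. In 786O A4KO, *PAX2* moved to the second place, followed by *LHX1* and *HNF4G*, and *POU3F3* fell to the range of *HNF4A*, with which it overlapped. Other neighbours in these orders did not overlap. In mean WT level, *POU3F3* and *LHX1* were both higher in 786O (31.3 and 45.3 TPM) than in CAKi-1 (7.53 and 9.46 TPM), although the values of the lines were deposited separately and this was not tested.

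The difference of the A4KO effects between the lines was tested as the interaction of line and genotype in limma over the 15247 genes of both. It passed an adjusted p of 0.05 for 5 of 5 members, beside 55.1% of all genes, so that a share of this kind is common in these data. The effect in 786O minus that in CAKi-1 was 1.0 for *HNF4G* (95% interval 0.76 to 1.24, adjusted p = 4.1e-06), -0.70 for *PAX8* (-1.09 to -0.32, adjusted p = 0.0043) and -0.85 for *LHX1* (-1.45 to -0.24, adjusted p = 0.020). For *POU3F3* it was -1.84 (-2.01 to -1.68, adjusted p = 2.7e-10), but both A4KO groups were near 0 TPM, so that on this scale the difference follows the WT levels. Over 21 alternatives the difference for *POU3F3* ran from -1.88 to -1.30 (limma interaction, adjusted p at most 0.0051). For *HNF4A* it was 0.15 (0.03 to 0.27, adjusted p = 0.038), and this was lost when any of 7 single libraries was left out.

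The genes whose pattern over the 15 libraries was most like that of *POU3F3*, *PAX8*, *HNF4G* and *LHX1* were found among 13628 genes of both lines reaching 1 TPM in at least 1 library, by the root mean square difference of centred log2(TPM + 1). For *POU3F3*, whose own spread was 2.0, they were *WNT7B* (0.591), the extracellular matrix gene *MATN2* (0.886) and *KCNIP3*, a calcium-binding channel subunit (0.887). *WNT7B* fell from 15.8 ± 5.25 to 2.10 ± 0.780 TPM in CAKi-1 and from 61.3 ± 2.11 to 4.37 ± 0.351 TPM in 786O (SD). *MATN2* fell from 33.1 ± 6.19 to 6.64 ± 0.418 TPM and from 79.4 ± 0.966 to 15.7 ± 0.668 TPM. *KCNIP3* fell from 9.15 ± 1.93 to 4.17 ± 0.601 TPM in CAKi-1 (-0.96, under the fold threshold) and from 45 ± 1.93 to 2.47 ± 0.299 TPM in 786O. For *LHX1* (spread 0.908) the closest were *SDC2* (0.202), a heparan sulphate proteoglycan, *KCNMA1* (0.212), a potassium channel, and *UGT8* (0.215). For *HNF4G* (spread 0.373) they were *DPM2* (0.118), *LDAH* (0.122) and *CCDC74A* (0.134), and for *PAX8* (spread 0.251) *HIBADH* (0.0834), *PTPRK* (0.110) and *IRF2BP2* (0.110). None were sought for *HNF4A*, which did not reach 1 TPM, or for *PAX2*, measured in 1 line. These are descriptions over 15 libraries that share 4 groups.

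Other genes of the renal lineage were taken from 7 lists, and 8 were called in CAKi-1 and 15 in 786O. The counts of each list stand beside 3.33% of all genes called in CAKi-1 (2.21% higher and 1.12% lower) and 7.62% in 786O (2.43% higher and 5.19% lower), and with lists this small they are descriptions. Median log2 fold changes are given beside those of all genes, -0.01 in CAKi-1 and -0.03 in 786O. Of 20 regulators of nephron progenitors and the early kidney, 15 were measured in CAKi-1, of which 4 were called higher and 0 lower (median 0.25), and 14 in 786O, of which 0 were called higher and 2 lower (median -0.17). By adjusted p alone, 7 of 15 were higher and 1 lower in CAKi-1, beside 17.9% and 21.1% of all genes, and 0 of 14 higher and 6 lower in 786O, beside 27.5% and 33.5%.

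In CAKi-1 the Notch ligand *JAG1* rose from 4.92 ± 0.835 to 38.2 ± 12.1 TPM (log2 fold change 2.68, limma adjusted p = 5.0e-05). *GDNF*, which draws out the ureteric bud through its receptor RET, rose from 0.104 ± 0.028 to 3.5 ± 0.378 TPM (2.03, limma adjusted p = 3.0e-07). The zinc finger gene *OSR2* was just past the fold threshold (1.0) and fell under it without WT replicate 1 or 4 or A4KO replicate 2 or 5 (lowest 0.89), and also with quantile normalization (0.93) and with the replicate number as a block (0.89).

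*GATA3*, the zinc finger factor of the nephric duct, fell in 786O from 4.35 ± 0.806 to 0.0584 ± 0.0441 TPM (-2.33, limma adjusted p = 1.1e-05).

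Of 20 transcription factors of tubule segments, 0 of 13 were called in CAKi-1 (median -0.07) and 2 of 15 in 786O (median 0.13). In 786O the bile acid receptor gene *NR1H4* rose from 7.48 ± 0.521 to 16.8 ± 1.31 TPM (1.07, limma adjusted p = 4.4e-05) and *TFAP2A* fell from 17.6 ± 0.952 to 7.96 ± 0.469 TPM (-1.05, limma adjusted p = 2.0e-05). *TFAP2A* was under the fold threshold once the median shift of its neighbouring genes was taken off (-0.72) and also with quantile normalization.

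Of 10 glomerular and stromal factors, 1 of 9 was called lower in CAKi-1 (median -0.27) and 1 of 6 in 786O (median -0.50). They were the forkhead gene *FOXC1*, which fell from 9.37 ± 0.631 to 0.783 ± 0.166 TPM in CAKi-1 (-2.54, limma adjusted p = 2.8e-07), and the orphan receptor gene *NR2F1*, which fell from 2.25 ± 0.30 to 0.495 ± 0.120 TPM in 786O (-1.12, limma adjusted p = 8.3e-05). *NR2F1* was under the fold threshold with quantile normalization (-0.95). Of 22 paralogues of the members, 0 of 10 were called in CAKi-1 (median 0.01) and 1 of 13 in 786O (median -0.05). It was *PAX6*, the paired-box gene of the eye, which fell from 12.5 ± 0.526 to 4.34 ± 0.858 TPM (-1.34, limma adjusted p = 1.4e-04), while in CAKi-1 it was at 0.249 and 1.35 TPM in WT and A4KO (0.91, limma adjusted p = 3.2e-05).

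Differentiation genes of the nephron moved in both directions. Of 36 proximal tubule genes, 25 were measured in CAKi-1 and 1 was called higher and 0 lower (median 0.05), and of 26 in 786O 1 was called higher and 2 lower (median -0.03). *ANPEP*, a brush border aminopeptidase, fell in 786O from 95 ± 4.76 to 4.83 ± 0.854 TPM (-4.05, limma adjusted p = 1.7e-06), and *CDH6*, a cadherin of tubule precursors, fell from 213 ± 4.36 to 43.8 ± 0.702 TPM (-2.26, limma adjusted p = 2.5e-07). In CAKi-1, *ANPEP* and *CDH6* rose by 0.64 and 0.90 on this scale (limma adjusted p = 2.0e-04 and 0.0016), under the fold threshold. The scaffold gene *PDZK1* was called higher in CAKi-1 (3.56 ± 0.903 to 10.7 ± 2.23 TPM, 1.37) and *SLC17A3*, an anion transporter, in 786O (2.61 ± 0.539 to 6.40 ± 0.984 TPM, 1.04), the second under the fold threshold without WT replicate 1 (0.95) or A4KO replicate 2 (0.95).

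Of 23 genes of the loop of Henle, distal tubule and collecting duct, 1 of 16 was called higher and 0 lower in CAKi-1 (median 0.01). In 786O, 1 of 16 was called higher and 2 lower (median -0.01). The tight junction gene *CLDN16* was higher in CAKi-1 (1.48 ± 0.752 to 4.50 ± 1.09 TPM, 1.18), whereas in 786O it went from 1.05 ± 0.175 to 0.103 ± 0.0817 TPM (-0.89, limma adjusted p = 1.7e-04), and the difference between the lines was -2.07 (limma interaction, adjusted p = 3.9e-05). In 786O the sodium pump regulator *FXYD2* fell from 662 ± 31.5 to 279 ± 19.1 TPM (-1.24) and the sodium channel gene *SCNN1A* from 15.1 ± 0.681 to 6.49 ± 0.420 TPM (-1.10), and the calcium-binding *CALB1* rose from 2.27 ± 0.701 to 5.86 ± 0.454 TPM (1.09). *CLDN16* without WT replicate 2 (0.996) or with A4KO replicates 2, 3 and 5 alone (0.989) and *CALB1* without WT replicate 1 (0.95) were under the fold threshold. So were *FXYD2* with neighbour centring (-0.68), in which the median shift of the surrounding genes is taken off, and *SCNN1A* with quantile normalization (-0.98).

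Of 29 targets of HNF4A and HNF1 in liver and kidney, 1 of 17 was called higher and 0 lower in CAKi-1 (median 0.12), and 2 of 19 higher and 1 lower in 786O (median 0.11). *SERPINA1*, a plasma protease inhibitor, rose in CAKi-1 from 16.7 ± 6.30 to 73.8 ± 6.69 TPM (2.14, limma adjusted p = 9.3e-05) and fell in 786O from 120.8 ± 3.68 to 28.8 ± 1.28 TPM (-2.03, limma adjusted p = 9.1e-07), and the difference between the lines was -4.17 (limma interaction, adjusted p = 2.7e-08). The hepatic lipase gene *LIPC* rose in 786O from 3.83 ± 0.996 to 12.7 ± 0.560 TPM (1.52), and the bilirubin-conjugating *UGT1A1* from 5.05 ± 0.660 to 11.1 ± 0.216 TPM (1.0). In CAKi-1, *UGT1A1* went from 1.41 ± 0.104 to 0.302 ± 0.112 TPM (-0.89, limma adjusted p = 3.2e-05), and the difference between the lines was 1.90 (limma interaction, adjusted p = 1.0e-08). *UGT1A1* shares exons with its family members, and its rise in 786O was under the fold threshold without WT replicate 2 or 3 or A4KO replicate 2 or 3 (lowest 0.93).

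**Figure D5:**
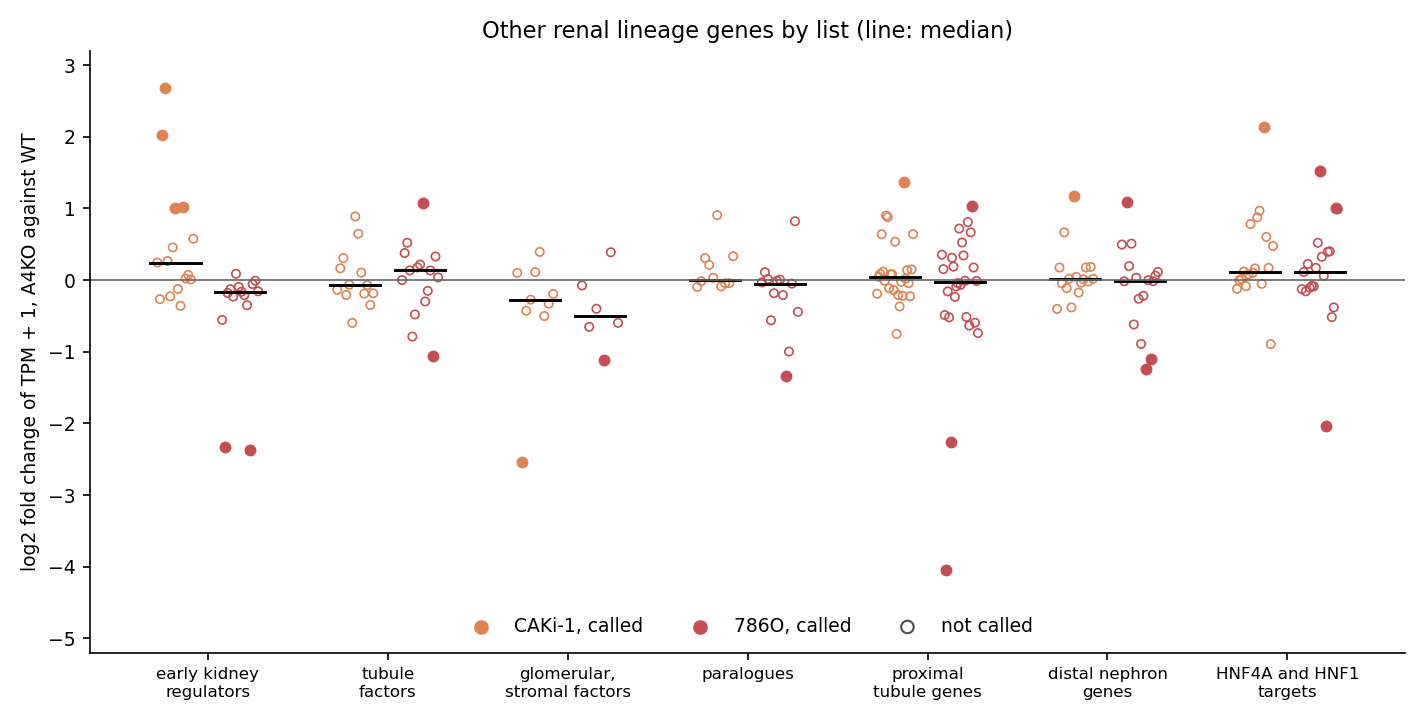
Log2 fold change of TPM + 1 (A4KO against WT) of the measured genes of 7 renal lists in CAKi-1 (orange) and 786O (red), filled where called and open where not, with the median as a line. The early kidney regulators have 4 called points above 0 in CAKi-1 and 2 below 0 in 786O, and the medians of the lists lie between -0.50 and 0.25.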

How the data were processed

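The 15 RNA-seq libraries were grouped by line, genotype and replicate as the sample labels give them. Poly(A) RNA was sequenced as paired-end reads. Per the labels and methods, the authors used Kallisto and hg38 for pseudoalignment (version not given in the sources used here) and deposited 1 matrix per line of gene-level values, which were taken as TPM from their sums. The step from transcripts to genes and any filter on genes are not stated. TPM depends on all other transcripts of a library and keeps no depth, so tools for counts were not used.

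From the deposited TPM, log2(TPM + 1) was compared with limma 3.58.1 (lmFit and eBayes, two-sided) in R 4.3.3 within each line, without a filter, and the interaction of line and genotype over the 15247 shared genes. Tests on simulated data with 200 changed genes recovered 99.5% in each line and 99% for the interaction, with 0, 1 and 11 false calls. Exact permutation tests were run on log2(TPM + 1). Positions are from GENCODE release 44, which held 16290 and 16185 of the genes, and upstream sequences are from RefSeq (GRCh38.p14).

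The members and lists were chosen with earlier results of these data known. The genes named are all members, *ANGPTL4*, the genes called in each list (at most 4 of the largest changes per line) and the 3 genes closest to each member that was measured in both lines and reached 1 TPM (4 of the 6). *POU3F2*, the neighbours, the genes ranked beside *POU3F3*, the markers and genes given for a second line were named outside this rule after their values were seen. Partner transcripts of the members were not analysed here, and some genes counted in the lists are not reported here by name. Alternatives were pseudocounts of 0.1 and 0, a filter at 1 TPM, quantile normalization, eBayes with trend and robust options, the replicate number as a block, values centred on 25 expressed neighbours on each side, each library left out, and CAKi-1 A4KO replicates 2, 3 and 5 alone.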

Additional observations from a re-analysis of the deposited data

Results flagged for a closer look

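The A4KO effects on all 5 members measured in both lines were set apart by the test of their difference (limma interaction, 786O minus CAKi-1, on log2(TPM + 1)), which 55.1% of all genes passed. The difference was -1.84 for *POU3F3*, which fell in every A4KO library of both lines. It was -0.70 for *PAX8* and -0.85 for *LHX1*, which fell in 786O and overlapped between the groups in CAKi-1. It was 1.0 for *HNF4G*, higher in 3 of 3 A4KO libraries of 786O, and 0.15 for *HNF4A*, at under 0.2 TPM in every library. By Dixon's criterion at the 95% level, which sets the gap of an extreme library to its nearest neighbour against the range of the group, no library of the groups of 4 and 5 passed for a member, also not the highest *HNF4A* value of CAKi-1 WT (0.0463 TPM, replicate 3). The groups of 3 were not examined in this way.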

How the results depend on the processing

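TPM gives no read depth, the clones behind the groups are not identified, and *HNF4A* and the A4KO values of *POU3F3* lie near the lower end of what was measured, so their ratios are uncertain. Over all alternatives run, *POU3F3* was called lower in both lines (log2 fold change -6.65 to -2.95 in CAKi-1 and -7.94 to -4.66 in 786O), and in 786O *PAX2* stayed between 1.69 and 1.87, *HNF4G* between 0.98 and 1.25, *LHX1* between -0.96 and -0.70 and *PAX8* between -0.62 and -0.33. Of the alternative values of single members, 247 kept their direction and their side of an adjusted p of 0.05, 7 came to pass it, 8 (all the difference between the lines for *HNF4A*) no longer passed it and 4 reversed. *HNF4G* in 786O without A4KO replicate 3 kept its adjusted p but not the fold threshold (0.98).

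With no pseudocount, 2 members instead of 1 were called in CAKi-1, and 4 instead of 3 in 786O, the added one in both being *HNF4A* (-1.72 and 2.17). List genes called in CAKi-1 numbered 20 with a pseudocount of 0.1 and 24 with none, against 8, and in 786O 33 and 35, against 15, since these scales do not damp low values. Genes called in all numbered 412 to 1347 in CAKi-1, against 543, and 1057 to 2342 in 786O, against 1233. With 1 library left out, members called numbered 1 to 1 in CAKi-1 and 2 to 3 in 786O, list genes 6 to 8 and 13 to 17, and members that differed between the lines 4 to 5. The difference for *HNF4A* was lost without CAKi-1 WT replicate 1, 2 or 3, A4KO replicate 2, 786O WT replicate 1 or 2, or A4KO replicate 2 (adjusted p 0.053 to 0.12).

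Reversals concerned values that had not passed the fold threshold, and the cause was not tested. In CAKi-1, *LHX1* was -0.0097 with the replicate block and without A4KO replicate 5, *CD68* 0.0048 with quantile normalization, *GATA3* 0.033 and *TFAP2A* 0.072 with neighbour centring, *TFAP2A* 0.0056 without A4KO replicate 2, and *SLC17A3* 0.034, 0.0059 and 0.031 without WT replicate 1, A4KO replicate 2 and A4KO replicate 3. With 1 library left out, *TFAP2A* ran from -0.17 to 0.0056, *SLC17A3* from -0.14 to 0.034 and *LHX1* from -0.0097 to 0.29. With A4KO replicates 2, 3 and 5 alone, *PAX8* was -0.064 and *FXYD2* 0.021. In 786O, *OSR2* was 0.042 and *FOXC1* 0.15 with quantile normalization, and with neighbour centring *FOXC1* was 0.29, *HNF4A* -0.086 and *JAG1* 0.20.

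Libraries of the same replicate number did not deviate together (correlations of their deviations from the group means -0.062 to 0.14), so the numbers were not taken to pair them. With the replicate number as a block, members called stayed at 1 in CAKi-1 and 3 in 786O, list genes called were 7 (without *OSR2*) and 15, and the difference between the lines was lost for *HNF4A* (adjusted p = 0.118).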

Other observations

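Among genes called in both lines, more went in opposite directions than in the same one, which was not tested. More genes were called higher than lower in CAKi-1, and fewer in 786O. The overlap expected from such totals was not worked out. Of the 15247 genes of both lines, 39 were called lower in both, which is 23.1% of the 169 called lower in CAKi-1 and 4.89% of the 798 called lower in 786O, and *POU3F3* is among them. A further 22 were called higher in both, which is 6.57% of the 335 called higher in CAKi-1 and 5.93% of the 371 called higher in 786O. In contrast, 81 were higher in CAKi-1 and lower in 786O (24.2% and 10.2%), *SERPINA1* among them, and 18 were lower in CAKi-1 and higher in 786O (10.7% and 4.85%).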
